A study of Homo sapiens with 6 samples.

Results

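Annexins ANXA1, ANXA2, ANXA3, ANXA4, ANXA5, ANXA6, ANXA7 and ANXA11 are the subject here, taken by their gene symbols from a list, 8 of 17513 genes in the deposited tables. All 8 were listed, and 7 had enough counts to be tested, ANXA3 being the exception. Polyadenylated RNA of 6 libraries was sequenced, 3 from cells in shSPP1#2 medium and 3 from cells in shNC medium. Per the series description, the sequenced cells were macrophages derived from the human monocytic leukemia line THP1, which spent 48 h in medium taken from KYSE150 cells, a line of squamous carcinoma of the human esophagus. In shSPP1#2 medium the KYSE150 cells carried a hairpin against SPP1, which encodes the secreted glycoprotein osteopontin; in shNC medium they carried shNC, the hairpin of the comparison arm. The series title concerns SPP1 of this carcinoma and macrophages. The comparison addresses what medium from tumor cells with the SPP1 hairpin does to the receiving cells. Loss of SPP1 in the tumor cells is not measured in these libraries. The design has limits as a model: 1 hairpin, 1 tumor line and 1 macrophage line were used, and the labels do not state separate cultures for the replicates. The p-values therefore rest on the spread among these 6 samples, and that spread may be technical.

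The sample labels name KYSE150 itself, whereas the RNA carried macrophage transcripts. Of 20 monocyte and macrophage markers, 18 reached 1 FPKM, a level scaled to transcript length and library size, in each library, led by the integrin chain ITGB2 at 1445 to 1541 FPKM. Of 17 squamous epithelial markers in the table (22 listed), 4 did so, led by the protease inhibitor CSTA at 39.3 to 52.5 FPKM. Of 10 fibroblast markers 5 reached 1 FPKM, led by COL1A1 at 16.3 to 19.1 FPKM, and of 7 T and NK cell markers in the table (12 listed) 4 or 5 did, led by granulysin, GNLY, at 214 to 274 FPKM. Summed over each list, the T and NK markers gave 232 to 259 FPKM in shSPP1#2 medium against 253 to 297 FPKM in shNC medium, and the fibroblast markers 53.4 to 58.7 FPKM against 55.0 to 60.0 FPKM; their part in the values below was not tested. In bulk RNA, fewer cells of a type and less RNA per cell cannot be told apart. SPP1 measured 2061, 2014 and 1932 FPKM in shSPP1#2 medium, against 2075, 2011 and 1890.4 FPKM in shNC medium; these are values of the receiving cells and do not check the knockdown. Libraries held 18113591 to 20626346 estimated counts each.

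Annexins are cytosolic proteins that bind acidic phospholipids of membranes when calcium rises. A conserved core of repeats holds the calcium sites, and a variable N-terminal tail sets the partners, many of them S100 proteins. In macrophages the family is known for roles in phagocytosis, membrane repair, vesicle traffic and the resolution of inflammation.

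The members differed greatly in level, and stretches upstream of their starts are shown for 4 of them to set beside these levels. RefSeq's promoter table (build GRCh38.p14) held 12 entries for the 8 members, and the 250 bases before that table's start were read 5′ to 3′ on the gene's strand. These starts differ from the ends of the GENCODE gene spans given below, and each of the 4 windows shown overlaps the span of its gene. Capitals mark each CG dinucleotide, the pair in which cytosine can be methylated. ANXA5 is the most abundant member, ANXA2 the next, ANXA1 a mid-level member and ANXA3 a member near 0. The windows are chr4:121696981-121697230 on the minus strand for ANXA5, chr15:60397987-60398236 on the minus strand for ANXA2, chr9:73151615-73151864 on the plus strand for ANXA1 and chr4:78551520-78551769 on the plus strand for ANXA3.
ANXA5: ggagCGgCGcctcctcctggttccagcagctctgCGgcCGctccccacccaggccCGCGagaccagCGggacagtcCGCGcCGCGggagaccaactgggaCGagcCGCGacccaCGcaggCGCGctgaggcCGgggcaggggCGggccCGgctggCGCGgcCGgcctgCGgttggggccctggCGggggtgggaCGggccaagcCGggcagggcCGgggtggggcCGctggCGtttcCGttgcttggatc
ANXA2: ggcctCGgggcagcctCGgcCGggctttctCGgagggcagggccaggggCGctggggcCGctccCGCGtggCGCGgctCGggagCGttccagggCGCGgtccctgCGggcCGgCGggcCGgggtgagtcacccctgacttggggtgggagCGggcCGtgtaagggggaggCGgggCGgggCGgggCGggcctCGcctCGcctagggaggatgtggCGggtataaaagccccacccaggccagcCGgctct
ANXA1: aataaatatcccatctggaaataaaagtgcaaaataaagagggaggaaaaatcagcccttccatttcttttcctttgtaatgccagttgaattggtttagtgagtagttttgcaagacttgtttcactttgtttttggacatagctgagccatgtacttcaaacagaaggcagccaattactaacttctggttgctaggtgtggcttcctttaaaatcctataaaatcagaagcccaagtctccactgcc
ANXA3: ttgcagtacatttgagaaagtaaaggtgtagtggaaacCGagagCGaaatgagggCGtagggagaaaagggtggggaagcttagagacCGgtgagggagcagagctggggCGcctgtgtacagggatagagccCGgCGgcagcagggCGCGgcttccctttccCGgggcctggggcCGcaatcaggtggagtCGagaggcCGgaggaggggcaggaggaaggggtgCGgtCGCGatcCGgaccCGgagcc
The ANXA5 window held 31 CG dinucleotides and the ANXA2 window 28, the ANXA1 window 0 and the ANXA3 window 18, where the median over 35116 promoters of the same length was 11 with quartiles of 3 and 23. The window of ANXA3, the member near 0, thus had more CG than the median, and that of ANXA1 had none. The TATA motif TATAAA, searched on both strands, began 31 bases before the start on the gene's strand of both ANXA1 and ANXA2 and was not found in the windows of ANXA3 and ANXA5; 10.7% of all promoters held it. The GC box GGGCGG, also searched on both strands, occurred 3 times in the ANXA2 window, once in that of ANXA5 and not in those of ANXA1 and ANXA3, against 42.6% of all promoters with at least 1. The motif GAGGAA, the core of sites of the myeloid factor PU.1, occurred once each in the windows of ANXA1 and ANXA3 and not in those of ANXA2 and ANXA5 (23.6% of all promoters held it). Matches of letters describe these windows and are not shown to be sites.

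None of the annexins was called different between shSPP1#2 medium and shNC medium. With edgeR's quasi-likelihood test, 0 of 7 tested members had a Benjamini-Hochberg adjusted p below 0.05, where 0% of the 13555 genes tested did, and 0 of 7 had an unadjusted p below 0.05, against 6.85% of all genes. DESeq2 gave an adjusted p for 5 members and called 0 of them, against 0.305% of the genes it adjusted over, and edgeR with the replicate number as a block called 0 members, against 0.435% of all genes. Values of log2 CPM, counts scaled to library size with TMM factors, of the groups overlapped for all 7 members, where they lay apart for 11.1% of all genes. Of the log2 fold changes, 4 were positive and 3 negative, with a median of 0.016 beside -0.0003 for all genes tested. The intervals were narrow: for ANXA1, ANXA4, ANXA5, ANXA6, ANXA7 and ANXA11 the 95% interval of the difference lay between -9.10% and 12.2%, and for ANXA2 between -13.5% and 0.761%. ANXA3 was too low for a test.

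**Figure D1:**
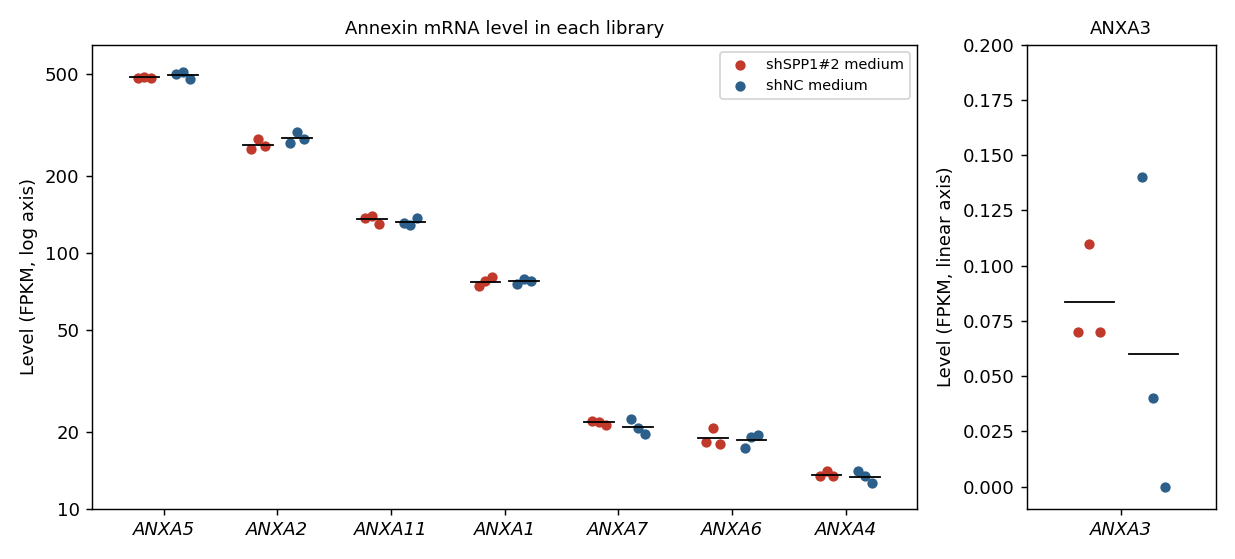
FPKM of each annexin in each library, on a log axis for 7 members and on a linear axis for ANXA3, with red points for the 3 libraries of shSPP1#2 medium, blue points for the 3 of shNC medium and a black line at each group's mean. Levels ran from 490.2 FPKM for ANXA5 to 13.5 FPKM for ANXA4 as means of 6 libraries, ANXA3 stayed at or under 0.14 FPKM, and the groups of every member overlapped.

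By the mean over 6 libraries, the order of levels in FPKM was ANXA5, ANXA2, ANXA11, ANXA1, ANXA7, ANXA6, ANXA4 and ANXA3. The ranges of ANXA7, 19.7 to 22.5 FPKM, and of ANXA6, 17.2 to 20.7 FPKM, overlapped, so that these neighbors did not differ beyond their spread. No other neighbors in the order overlapped over the 6 libraries. ANXA5 ranked 126th, ANXA2 235th, ANXA11 514th and ANXA1 921st of all 17513 genes by mean FPKM.

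ANXA1 is a glucocorticoid-induced protein that restrains phospholipase A2 and signals through the formyl peptide receptor FPR2. It measured 73.9, 77.4 and 80.1 FPKM in shSPP1#2 medium, against 75.4, 78.9 and 77.6 FPKM in shNC medium. In FPKM the lowest and the highest library were both of shSPP1#2 medium, and the groups overlapped throughout. Its log2 fold change was -0.0082 with a standard error of 0.046 (95% interval -0.11 to 0.089; edgeR adjusted p = 0.988). GENCODE v29 on GRCh38, used for all gene coordinates here, places ANXA1 (Entrez 301) at 73151757 to 73170393 of chromosome 9, plus strand.

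The formyl peptide receptors were near 0. FPR2 had 0, 2 and 0 counts in the 3 libraries of shSPP1#2 medium, against 5, 0 and 2 in shNC medium. FPR1 had 3, 5 and 2 counts against 1, 2 and 0, and FPR3 had 1, 0 and 1 counts against 2, 3 and 1, in the same order of groups. None of these receptors was tested, and a difference between the media was not detectable at this depth.

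ANXA2 forms a complex with S100A10 that binds plasminogen and its tissue activator at the cell surface. It measured 253, 277 and 260.4 FPKM in shSPP1#2 medium, against 268, 296 and 279 FPKM in shNC medium. The library of shSPP1#2 medium with the highest value, replicate 2, lay above shNC replicate 1, and the other libraries of shSPP1#2 medium lay below all of shNC medium. Its log2 fold change of -0.099 was the largest in size among the members, with a standard error of 0.052 (95% interval -0.21 to 0.011; edgeR adjusted p = 0.770), and was -0.049 without shNC replicate 2. Among the 5562 tested genes whose mean log2 CPM reached 5, 13.2% had a fold change of at least that size. ANXA2 (Entrez 302) occupies 60347134 to 60402883 of chromosome 15, minus strand, and has 38 annotated transcripts. Processed pseudogenes of ANXA2 (ANXA2P1, ANXA2P2 and ANXA2P3) are annotated in GENCODE, and 0 of these 3 are among the genes of the deposited tables. The estimated counts of ANXA2 are uncertain where reads could be shared with them.

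ANXA5 binds phosphatidylserine, the lipid that dying cells expose, and is the basis of the usual stain for them. It measured 481, 486 and 483 FPKM in shSPP1#2 medium, against 501, 510.4 and 479 FPKM in shNC medium. The libraries of shSPP1#2 medium lay close together, with an SD of 2.43 FPKM against 16.0 FPKM in shNC medium. The lowest library of all in FPKM was shNC replicate 3. Its log2 fold change was -0.044 with a standard error of 0.045 (95% interval -0.14 to 0.049; edgeR adjusted p = 0.902). ANXA5 (Entrez 308) occupies 121667955 to 121697113 of chromosome 4, minus strand.

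ANXA11, which tethers RNA granules to lysosomes and binds S100A6 and the calcium sensor PDCD6, measured 136, 139.6 and 129 FPKM in shSPP1#2 medium, against 131, 128 and 136 FPKM in shNC medium. ANXA7, a partner of sorcin and of PDCD6, measured 21.95, 21.88 and 21.3 FPKM in shSPP1#2 medium, against 22.5, 20.6 and 19.7 FPKM in shNC medium. In FPKM the range of shNC medium for ANXA7 enclosed that of shSPP1#2 medium. For ANXA11 the highest library in FPKM was of shSPP1#2 medium and the lowest of shNC medium, with the others mixed. The log2 fold changes were 0.030 for ANXA11 (95% interval -0.065 to 0.12; edgeR adjusted p = 0.947) and 0.038 for ANXA7 (-0.081 to 0.16; adjusted p = 0.947). Both lie on the minus strand of chromosome 10, ANXA11 (Entrez 311) at 80150889 to 80205572 and ANXA7 (Entrez 310) at 73375101 to 73414076. Exons of ANXA7 share 105 bases (3.67%) with the antisense gene AL512656.1, and reads from there are uncertain because the sources used here do not state whether counting used strand.

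ANXA6, whose core is duplicated and which acts in endosome and cholesterol traffic, measured 18.2, 20.7 and 17.97 FPKM in shSPP1#2 medium, against 17.2, 19.0 and 19.3 FPKM in shNC medium. ANXA4, a membrane-binding annexin that self-assembles on lipid surfaces, measured 13.4, 14.0 and 13.4 FPKM in shSPP1#2 medium, against 14.0, 13.4 and 12.6 FPKM in shNC medium. The values of both genes interleaved between the groups. The log2 fold changes were 0.029 for ANXA6 (95% interval -0.11 to 0.17; edgeR adjusted p = 0.964) and 0.016 for ANXA4 (-0.11 to 0.14; adjusted p = 0.979). ANXA6 (Entrez 309) occupies 151100712 to 151157882 of chromosome 5, minus strand, and ANXA4 (Entrez 307) occupies 69644425 to 69827100 of chromosome 2, plus strand.

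ANXA3, an annexin abundant in neutrophils, had 2, 3 and 2 counts in shSPP1#2 medium, against 4, 1 and 0 in shNC medium. Summed over a group, this was 0.114 CPM in shSPP1#2 medium (exact Poisson 95% interval 0.046 to 0.236) and 0.084 CPM in shNC medium (0.027 to 0.197), intervals that cover counting error only. The intervals overlapped, and a difference was not detectable at this depth. ANXA3 (Entrez 306) occupies 78551519 to 78610451 of chromosome 4, plus strand. Annexins outside the list were low as well. ANXA9 measured 2.04, 1.64 and 2.00 FPKM in shSPP1#2 medium, against 1.54, 1.67 and 1.85 FPKM in shNC medium, with a log2 fold change of 0.18 (95% interval -0.16 to 0.53; edgeR adjusted p = 0.894). ANXA8, ANXA8L1, ANXA10 and ANXA13 were not tested and summed to 5, 6, 4 and 36 counts in shSPP1#2 medium, against 18, 3, 0 and 23 in shNC medium. ANXA8 and ANXA8L1 are near-identical copies, so the division of counts between them is uncertain.

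**Figure D2:**
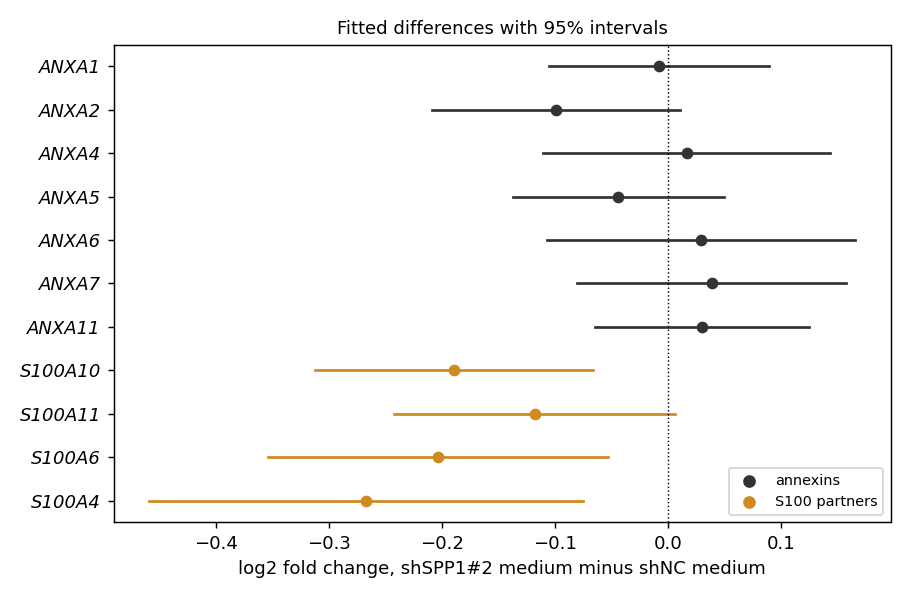
Log2 fold changes of the 7 tested annexins (black) and 4 of their S100 partners (orange), shSPP1#2 medium minus shNC medium, with 95% intervals of the edgeR fit. All 7 annexin intervals include 0, while those of S100A10, S100A6 and S100A4 lie below 0 although none of them passed the adjusted threshold in this fit, which has no replicate block.

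ANXA5 and ANXA2 together made up most of the annexin pool in each library. Summed over the 8 members, the level was 998, 1037 and 1006 FPKM in shSPP1#2 medium, against 1029, 1067 and 1024 FPKM in shNC medium. ANXA5 made up 47.7% ± 0.725 of this sum in shSPP1#2 medium and 47.8% ± 0.941 in shNC medium (SD, n = 3 each). ANXA2 made up 26.0% ± 0.688 in shSPP1#2 medium and 27.0% ± 0.900 in shNC medium, ANXA11 13.3% ± 0.415 and 12.7% ± 0.633, and ANXA1 7.61% ± 0.309 and 7.43% ± 0.134, in the same order of groups. The ranges of the groups overlapped for each of these 4 shares, and the shares were not tested.

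**Figure D3:**
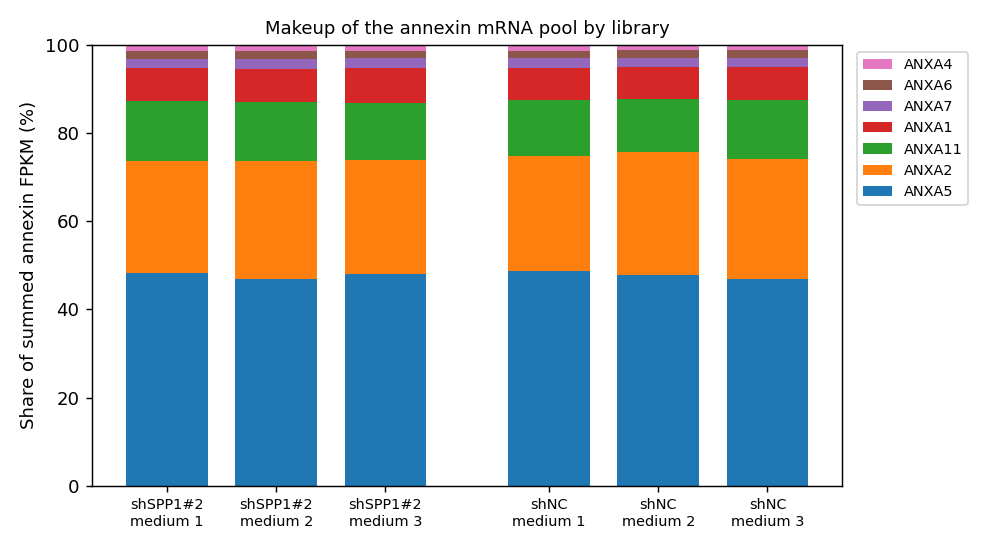
Share of each annexin in the summed annexin FPKM of each library, in percent, with shSPP1#2 medium on the left and shNC medium on the right (ANXA3, under 0.014% of the sum, is not drawn). ANXA5 takes 46.8% to 48.7% and ANXA2 25.4% to 27.8% of the sum in every library.

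The library with the highest or lowest value differed from member to member. Of the 7 tested members, ANXA4, ANXA6 and ANXA11 had their highest log2 CPM in shSPP1#2 replicate 2, ANXA1, ANXA2 and ANXA5 in shNC replicate 2, and ANXA7 in shNC replicate 1. Their lowest values were in shSPP1#2 replicate 1 for ANXA1 and ANXA2, in shSPP1#2 replicate 3 for ANXA5 and ANXA11, in shNC replicate 1 for ANXA6 and in shNC replicate 3 for ANXA4 and ANXA7. The scale matters here: in FPKM the highest library was another one for ANXA1 and ANXA4, and the lowest another one for ANXA5 and ANXA11. The widest range over the 6 libraries was that of ANXA6, 0.29 on the log2 scale, and the narrowest were those of ANXA1, ANXA5 and ANXA11, at 0.12 each. The transcript length implied by the ratio of estimated counts to FPKM moves when reads are divided differently among transcripts. This length varied by 0.0199% over the libraries for ANXA5 and by 1.76% for ANXA11, with the other tested members between these values. The median over 10683 genes was 1.47%. The genes nearest to the summed annexins in log2 CPM over the 6 libraries, out of 5550 candidates, were CPQ, XRCC6 and USP4, with root mean square differences of 0.0087, 0.0099 and 0.011. The median candidate had 0.064, and a flat line would have had 0.037.

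**Figure D4:**
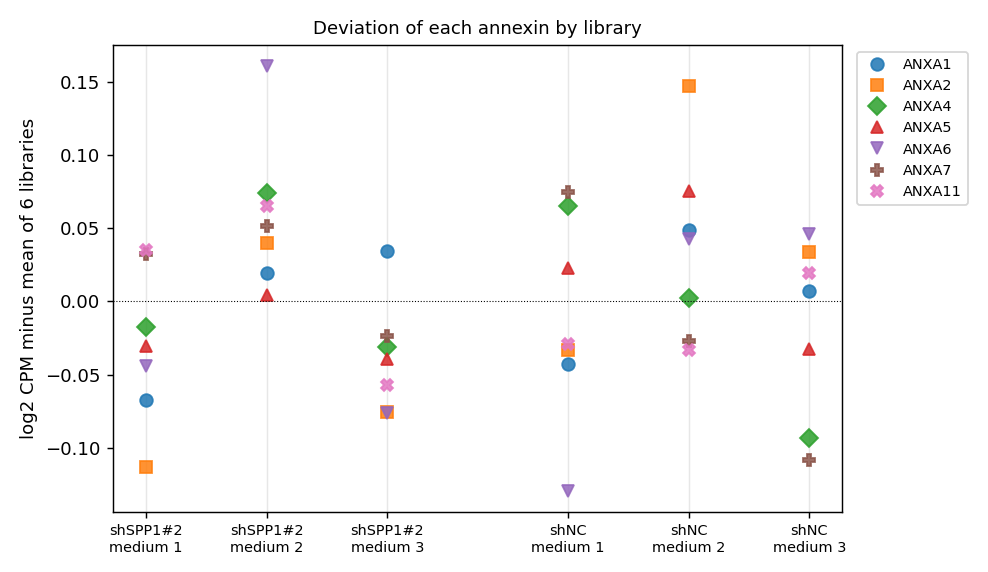
Log2 CPM of each tested annexin minus its mean over the 6 libraries, with the 3 libraries of shSPP1#2 medium on the left and the 3 of shNC medium on the right. The largest deviations are those of ANXA6 in shSPP1#2 replicate 2, at 0.16, and of ANXA2 in shNC replicate 2, at 0.15.

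The annexin partners S100A10, S100A11, S100A6 and S100A4 were lower in value in shSPP1#2 medium, without a call in the fit with no replicate block. S100A6 and S100A4 are named for their small p in these data. Among the 15 tested binding partners, kinases and receptors of annexins, 8 log2 fold changes were positive and 7 negative. S100A10, which pairs with ANXA2, measured 268, 289 and 263 FPKM in shSPP1#2 medium, against 302, 339 and 291 FPKM in shNC medium. In FPKM the groups lay apart, with all of shSPP1#2 medium below all of shNC medium, whereas in scaled log2 CPM they overlapped. Its log2 fold change was -0.19 with a standard error of 0.059 (95% interval -0.31 to -0.067; edgeR adjusted p = 0.509). S100A11, a partner of ANXA1, measured 1270.2, 1256 and 1181 FPKM in shSPP1#2 medium, against 1326, 1464 and 1219 FPKM in shNC medium, with a log2 fold change of -0.12 (-0.24 to 0.0065; edgeR adjusted p = 0.746). S100A6, a partner of ANXA2 and ANXA11, and S100A4, which binds ANXA2, had log2 fold changes of -0.20 (-0.35 to -0.053; edgeR adjusted p = 0.601) and -0.27 (-0.46 to -0.075; adjusted p = 0.583).

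These S100 transcripts are short, and shNC replicate 2 was the highest library in FPKM for each. S100A4 measured 418 FPKM in that library, against 271, 302 and 283 FPKM in shSPP1#2 medium and 292 and 317 FPKM in the other libraries of shNC medium. Without it the log2 fold changes were -0.12 for S100A10, -0.040 for S100A11, -0.086 for S100A6 and -0.093 for S100A4. With other single libraries left out they reached -0.24 for S100A10, -0.18 for S100A11, -0.28 for S100A6 and -0.38 for S100A4. Implied lengths were 622 bases for S100A10 and 514 for S100A11, and among the 1069 shortest of 10683 genes the median log2 fold change was -0.063, with 78.4% below 0, beside -0.0012 and 50.7% over all of those genes. The part of length in the S100 values was not tested.

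The ratio of ANXA2 to S100A10 in FPKM, a per-length scale, was 0.946, 0.959 and 0.992 in shSPP1#2 medium, against 0.887, 0.875 and 0.960 in shNC medium. The highest ratio of shNC medium, replicate 3, lay just above the lower ratios of shSPP1#2 medium. The means were 0.966 ± 0.0235 and 0.907 ± 0.0459 (SD, n = 3 each; two-sided exact permutation p = 0.3, adjusted over 2 ratios 0.4). The ratio of ANXA1 to S100A11 averaged 0.0625 ± 0.00489 in shSPP1#2 medium and 0.0581 ± 0.00505 in shNC medium (SD, n = 3 each; two-sided exact permutation p = 0.4, adjusted 0.4). With single libraries left out, the log2 difference of the ANXA2 ratio, 0.091, was lowest at 0.065 (shNC replicate 2 omitted) and highest at 0.13 (shNC replicate 3 omitted). That of the ANXA1 ratio, 0.11, ran from 0.046 without shSPP1#2 replicate 3 to 0.17 without shNC replicate 3, and was 0.053 without shNC replicate 2. Neither difference held against the spread, and 3 against 3 libraries allow no p below 0.1.

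Among 18 listed binding partners, kinases and receptors of annexins, 15 were tested and 0 passed in the fit with no replicate block. With the block, S100A10, S100A4 and S100A6 were called, where 0.435% of all genes were. At an unadjusted edgeR p below 0.05 there were 3, S100A10, S100A4 and S100A6, all lower in value in shSPP1#2 medium, where 3.39% of all genes were lower at that threshold. The list was chosen with earlier results of these data known, so this count is no test of it. The median log2 fold change of the list was 0.0032, beside -0.0003 for all genes tested. EGFR, a receptor tyrosine kinase that phosphorylates ANXA1, had a log2 fold change of 0.25 (-0.0028 to 0.51; edgeR adjusted p = 0.732) at a level of 0.637 ± 0.031 FPKM in shSPP1#2 medium and 0.560 ± 0.026 FPKM in shNC medium (SD, n = 3 each).

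Genes of membrane repair, in which annexins plug tears while ESCRT-III sheds damaged membrane, showed no call. Of 28 listed, 27 were tested, 0 passed and 0 reached an unadjusted edgeR p below 0.05, against 6.85% of all genes, with a median log2 fold change of -0.0074. The smallest p was that of CHMP3, an ESCRT-III subunit, at 22.8, 23.3 and 22.6 FPKM in shSPP1#2 medium, against 21.2, 21.8 and 21.3 FPKM in shNC medium (log2 fold change 0.088, 95% interval -0.010 to 0.19; edgeR adjusted p = 0.773). Its groups lay apart, as for 11.1% of all genes. The calpain subunit CAPN2 had a log2 fold change of -0.070, the ESCRT-III subunit CHMP4B one of -0.064 and the membrane-traffic ATPase EHD1 one of -0.084, each with an edgeR adjusted p of at least 0.822. Without shNC replicate 2 the values were -0.015 for both CHMP4B and EHD1, and EHD1 was -0.16 without shNC replicate 1, -0.15 without shSPP1#2 replicate 2 and -0.038 without shSPP1#2 replicate 1. CHMP4B was -0.039 without shSPP1#2 replicate 1 and -0.093 without shNC replicate 3.

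Genes that expose or recognize phosphatidylserine, the ligand of ANXA5, also had no call. Of 31 listed, 28 were tested and 0 passed, with a median log2 fold change of 0.024. The scramblase family member PLSCR1 was the single gene at an unadjusted edgeR p below 0.05, where 3.45% of all genes were higher at that threshold. It measured 24.3, 24.1 and 22.9 FPKM in shSPP1#2 medium, against 21.94, 21.01 and 21.85 FPKM in shNC medium, with the groups apart. Its log2 fold change was 0.12 (95% interval 0.00012 to 0.25, edgeR adjusted p = 0.729). Of the 28 tested genes, 2 had groups apart in log2 CPM, against 11.1% of all genes. The flippase ATP11A had a log2 fold change of 0.094, the integrin chain ITGAV of 0.069 and the engulfment adaptor ELMO1 of 0.18, with edgeR adjusted p from 0.786 to 0.836.

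Of 10 genes of plasmin formation at the cell surface, 9 were tested and 0 passed in the fit with no replicate block. The median log2 fold change of the list was -0.054. With the block, S100A10 and PLAU were called, where 0.435% of all genes were. At an unadjusted edgeR p below 0.05 there were 3, all lower in value in shSPP1#2 medium: S100A10, the urokinase PLAU and its inhibitor SERPINB2, so that an activator and an inhibitor were among them. Over all genes, 3.39% were lower at that threshold. S100A10 is also in the list of binding partners. Both lists were chosen with earlier results of these data known, so this count is no test either. PLAU measured 98.5, 121 and 109 FPKM in shSPP1#2 medium, against 108, 139 and 129 FPKM in shNC medium (log2 fold change -0.20, 95% interval -0.37 to -0.036; edgeR adjusted p = 0.633). SERPINB2 measured 3.32, 3.52 and 3.96 FPKM in shSPP1#2 medium, against 4.10, 5.59 and 4.18 FPKM in shNC medium (-0.36, -0.63 to -0.091; edgeR adjusted p = 0.601). SERPINB2 values lay apart between the groups, as 5.5% of all genes did in that direction, and PLAU values overlapped. Without shNC replicate 2 the log2 fold changes were -0.12 for PLAU and -0.20 for SERPINB2. Without shNC replicate 1 they were -0.30 for PLAU and -0.44 for SERPINB2.

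Of 15 genes induced by glucocorticoids, as ANXA1 is, 14 were tested, 0 passed and 0 reached an unadjusted edgeR p below 0.05, against 6.85% of all genes, with a median log2 fold change of 0.014. The transcription factor KLF9 had a log2 fold change of 0.090 (95% interval -0.0019 to 0.18), the scavenger receptor CD163 of -0.23 (-0.47 to 0.0090), the phosphatase DUSP1 of -0.094 and the metallothionein MT1X of 0.41 (-0.080 to 0.90), with edgeR adjusted p from 0.732 to 0.788. MT1X ranged from 9.45 to 19.9 FPKM within shSPP1#2 medium, wider than the difference between the groups. Its log2 fold change ran from 0.14 without shSPP1#2 replicate 2 to 0.71 without shNC replicate 2.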

How the data were processed

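Polyadenylated RNA of 6 libraries was sequenced on a DNBSEQ platform, and libraries were grouped by the hairpin in their titles, per the labels. The authors deposited estimated counts per gene, not scaled (78.9% to 80.4% of values in a library not whole, tolerance 0.005), and FPKM values per gene, whose definition of length and total the sources used here do not give. Of the lines in the FPKM file, 20 held annotation text and were dropped. Per the submitters' processing notes, HISAT2 2.0.4, Bowtie2 2.2.5 and RSEM were used with GRCh38.p13; the notes give neither role nor order, and the sources used here state neither annotation nor strand use. Estimation divides reads between similar transcripts, which can move counts between near-identical genes.

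Estimated counts were rounded to whole numbers, filtered with filterByExpr (13555 of 17513 genes), scaled by TMM and tested with edgeR 4.0.16 (R 4.3.3, quasi-likelihood, no block), shSPP1#2 medium minus shNC medium. A call is a Benjamini-Hochberg adjusted p below 0.05 over all tested genes. Standard errors and 95% intervals come from that fit. The biological coefficient of variation from the common dispersion was 4.54%. Total counts per library were 18113591 to 20626346. Log2 CPM used a prior count of 2. The fit was tested on simulated counts. Ratios were compared with exact permutation tests (scipy 1.17.1). Coordinates are from GENCODE v29 on GRCh38 and promoter sequences from RefSeq.

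Alternatives were RLE and upper-quartile scaling, no low-count filter, a CPM of at least 1 in 3 libraries, DESeq2 1.42.0, limma-voom and limma (3.58.1) on log2(FPKM + 1) or log2(FPKM + 0.1), a replicate block, and each library left out. The text names all members, other annexins, SPP1, S100A10, S100A11, the formyl peptide receptors, up to 4 genes of smallest p in each of 5 lists, the 3 genes nearest to the summed annexins, and the most abundant identity markers; 1 gene under this rule is not reported here. Members and lists were chosen with earlier results of these data known.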

Additional observations from a re-analysis of the deposited data

How the results depend on the processing

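No annexin was called in any of the 15 alternatives run, and ANXA2, ANXA5 and ANXA11 kept the sign of their log2 fold change in each. DESeq2 gave no adjusted p for ANXA4 and ANXA7. With single libraries left out, ANXA1 ran from -0.032 to 0.023, ANXA2 from -0.15 to -0.049, ANXA4 from -0.025 to 0.055, ANXA5 from -0.070 to -0.018, ANXA6 from -0.048 to 0.076, ANXA7 from -0.0051 to 0.089, ANXA11 from 0.0040 to 0.067 and SPP1 from -0.034 to 0.038. SPP1 was -0.00049 under upper-quartile scaling. The number of annexins at an unadjusted p below 0.05 ran from 0 to 1 with single libraries left out, the 1 being ANXA2. Its log2 fold change was -0.14 with shNC replicate 1 left out (edgeR adjusted p = 0.605), -0.15 with shSPP1#2 replicate 2 left out (adjusted p = 0.454) and -0.049 with shNC replicate 2 left out. Over all genes, where edgeR called 0, DESeq2 called 13, edgeR with no low-count filter 18, limma-voom 1, limma on log2(FPKM + 0.1) 1, and the fits with a library left out 1 to 10; no other alternative but the block called any.

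With a replicate block in edgeR, 59 genes were called in place of 0, with 0 annexins among them, 1 annexin (ANXA2, adjusted p = 0.206) at an unadjusted p below 0.05, which 10.8% of all genes reached, and 4 genes of the 5 lists called, S100A10 (adjusted p = 0.0224), S100A4 (0.0417), S100A6 (0.0303) and PLAU (0.0169), all lower in shSPP1#2 medium. The numbers were not taken to pair the libraries in the main fit, and whether they do was not tested. Deviations of same-numbered libraries correlated at 0.194, 0.286 and 0.089. Those of differently numbered libraries correlated at -0.26, -0.164, -0.18, -0.013, -0.062 and 0.117. All same-numbered values were thus positive, and 0.117 was the only positive value among the differently numbered ones. That value is shSPP1#2 replicate 3 with shNC replicate 1, above the 0.089 of shSPP1#2 replicate 3 with its own number. The cause was not tested. Depth limits ANXA3, ANXA8, ANXA8L1, ANXA10 and the formyl peptide receptors, at 0 to 9 counts per library, and ANXA13, at 6 to 15.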
